A study of Mus musculus with 24 samples.

Results

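Genes of niche homing and adhesion, 8 in all, were examined in an ATAC-seq count table of mouse blood stem and progenitor cells: Cxcr4, Itga4, Itgb1, Cd44, Selplg, Cd34, Esam and Procr. A region of the table belonged to one of these genes when it overlapped the gene body, or when the nearest end of any protein-coding gene lay within 50 kb and was that gene's. By this rule 19 of the 13910 regions belonged to the 8 genes, and 12949 regions belonged to some protein-coding gene. All 8 genes had at least 1 region, so no member was without one. Cd34 had 5 regions, Cxcr4, Itga4 and Cd44 had 3 each, Itgb1 had 2, and Selplg, Esam and Procr had 1 each.

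ATAC-seq inserts sequencing adapters into open chromatin, so the count in a region measures how accessible that DNA was. Wild-type (WT) CD45.1 donor marrow had been transplanted into young CD45.2 recipient mice that were either WT or IκB–, and donor cells were sorted from femur and tibia 13 to 15 weeks later. The donor cells were thus WT in all groups, and only the recipient differed. The 4 sorted subsets were HSC (labelled LT-HSC, lineage-negative, Sca1+, cKit high, Flt3–), the multipotent progenitors MPP2 and MPP3 from the same Flt3– gate, and the Flt3+ progenitors MPP4, with 500 to 1500 cells per sample. The labels give the HSC gate as CD150– CD48–, MPP2 as CD150+ CD48+ and MPP3 as CD150– CD48+. The genetic change behind IκB–, the conditioning before transplantation and the ages in weeks were not given, and nothing says that replicates came from separate animals, so p-values measure the spread between these samples, which may be partly technical. With 2 recipient types and 4 subsets there were 8 groups of 3 libraries. Replicates 2 and 3 of MPP3 from WT recipients agreed within sampling noise (a chi-square of 1.005 for each degree of freedom, p = 0.348) and were counted as 1 sample, which left 23 replicates, 11 of WT and 12 of IκB– recipients.

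The members act at successive steps by which stem cells find and keep their place in marrow. Cxcr4 is the receptor for the chemokine Cxcl12, which marrow stroma makes, and draws circulating stem cells into the marrow. Itga4 and Itgb1 pair as the integrin VLA-4, which binds Vcam1 on endothelium and stroma. Selplg encodes PSGL-1, the ligand on which cells roll along selectins, and Cd44 binds hyaluronan and, with suitable sugars, E-selectin. Cd34 is a sialomucin of progenitors and endothelium, Esam is a junctional adhesion molecule shared by endothelium and stem cells, and Procr encodes the endothelial protein C receptor, a marker of mouse stem cells. In mice, long-term stem cells carry little Cd34 protein, while many multipotent progenitors carry more.

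The table's coordinates are in mm10, and genes were placed with a RefSeq table of GRCm38.p6, which has no exons, so regions inside a gene body could not be divided into exons and introns. Of the 19 regions, 10 overlapped a member's body and 6 were no more than 1 kb from some protein-coding gene's start or end, where 54.9% of all nuclear regions lay. Cxcr4, Itga4, Itgb1, Cd44 and Cd34 had a region at the gene's start. The promoter sequences are shown for the 4 starts whose upstream 250 bases overlapped an accessible region. That overlap was 250 bases for Cxcr4, Itga4 and Itgb1 and 121 bases for Cd34. Each is the RefSeq GRCm38.p6 sequence 5′ to 3′ on the gene's strand, ending at the base before the start, and capitals mark GC boxes (GGGCGG on either strand).
Cxcr4, chr1:128592300-128592549, minus strand: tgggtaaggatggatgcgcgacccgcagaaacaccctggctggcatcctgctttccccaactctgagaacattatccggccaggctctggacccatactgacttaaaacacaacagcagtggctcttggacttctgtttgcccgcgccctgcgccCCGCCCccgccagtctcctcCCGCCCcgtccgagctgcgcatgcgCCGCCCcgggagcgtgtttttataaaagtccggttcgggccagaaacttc
Itga4, chr2:79255176-79255425, plus strand: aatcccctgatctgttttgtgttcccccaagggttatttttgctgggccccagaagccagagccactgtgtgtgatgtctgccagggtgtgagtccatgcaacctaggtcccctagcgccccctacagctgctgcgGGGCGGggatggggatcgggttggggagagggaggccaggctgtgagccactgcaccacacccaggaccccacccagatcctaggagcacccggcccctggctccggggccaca
Itgb1, chr8:128685404-128685653, plus strand: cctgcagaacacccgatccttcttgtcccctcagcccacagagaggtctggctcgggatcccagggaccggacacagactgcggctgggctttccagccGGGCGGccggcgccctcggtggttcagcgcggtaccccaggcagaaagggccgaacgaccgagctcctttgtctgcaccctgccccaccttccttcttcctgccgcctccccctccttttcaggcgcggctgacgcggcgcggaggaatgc
Cd34, chr1:194938571-194938820, plus strand: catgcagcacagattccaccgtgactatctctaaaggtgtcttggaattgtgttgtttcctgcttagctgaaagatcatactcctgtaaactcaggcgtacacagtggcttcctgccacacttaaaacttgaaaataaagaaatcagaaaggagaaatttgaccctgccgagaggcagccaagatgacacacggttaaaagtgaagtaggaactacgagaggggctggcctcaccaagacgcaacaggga

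The Cxcr4 window held 3 GC boxes, those of Itga4 and Itgb1 held 1 each, and that of Cd34 held 0. GC boxes were found in 32.7% of all 32851 promoter windows of the same length. GC content was 61.2% in Cxcr4, 64.0% in Itga4, 68.0% in Itgb1 and 46.4% in Cd34, against a median of 52.4% over all windows. Cxcr4 had 19 CpG dinucleotides and Itgb1 had 21, while Itga4 and Cd34 each had 6, which is also the median of all windows. The kappaB motif, searched on both strands, was in none of the 4 windows and in 5.0% of all windows. The windows of Cd44 and Procr overlapped no region, and no entry was matched for Selplg and Esam.

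Counts per library summed to 121599 to 963699. The median per replicate over nuclear regions was 178043 in HSC and 327864 in MPP2, with MPP3 deepest at 486425 and MPP4 at 234246. The 19 member regions held 130 to 1083 counts per replicate, which was 0.0990% to 0.134% of the nuclear counts. Of the gating genes, Flt3 (summed over its regions) was highest in MPP4, at 141 ± 63.1 (SD, n = 3) and 204 ± 59.7 (SD, n = 3) CPM (counts scaled to a common library total) in WT and IκB– recipients (joint test over subsets, edgeR adjusted p = 0.0434). Slamf1, which encodes CD150, was lower in IκB– than in WT recipients (log2 fold change -1.97, edgeR adjusted p = 0.0172), and its part in the recipient results was not tested. Median recipient log2 differences were -0.37 over 4 megakaryocyte genes, -0.39 over 3 erythroid genes and -0.36 over 3 granulocyte and monocyte genes. Those of 2 stroma and 3 endothelial genes were 0.26 and -0.035, against -0.0088 over all genes. No gene of these lists was called, and their part was not tested either. The WT HSC had 34.5 ± 18.1 CPM of Slamf1 (SD, n = 3) although their gate is written as CD150–. No region was assigned to Ly6a (Sca1), Cd48 or any of 5 T cell genes, and 1 of 6 B cell genes had one. Among stroma genes 2 of 5 had a region and Cxcl12, Lepr and Col1a1 had none. The 3 IκB– HSC libraries had mean rank correlations of 0.583 to 0.650 with their own group, and the other libraries 0.629 (WT MPP4 replicate 1) to 0.875. Replicate 3 of them had 74.1% of its counts at gene ends, against 61.9% to 71.9% in the other libraries.

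Levels are given in CPM of all counts in the table after TMM scaling. Per kilobase of region, the least accessible was the one 21.8 kb downstream of the Cxcr4 start (45.3 CPM per kb), and the most accessible was 37.4 kb downstream of the Cd34 start (238 CPM per kb, 89.2 percentile of nuclear regions). Within Itga4 the short region 0.516 kb upstream of the start had 235 CPM per kb and the start itself 149. A filter on low counts was passed by 16 regions, which were tested, compared with 95.8% of all regions. The 3 that did not pass were Cxcr4 21.8 kb downstream, the Selplg region and the Procr region, and 2 of these are the sole region of their gene.

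The subsets differed at 2 of the 16 tested regions in the joint test over all subsets (edgeR quasi-likelihood test, adjusted p under 0.05), beside 7.2% of all 13325 regions tested. They were Cd34 10.5 kb upstream of its start (adjusted p = 0.00603) and Itga4 14.8 kb downstream of its start (adjusted p = 0.0420). Without adjustment, 5 of 16 had p under 0.05, against 18.8% of all regions; the other 3 were Cd34 4.76 kb downstream (adjusted p = 0.0758), Esam (0.0747) and Itga4 0.516 kb upstream (0.185). DESeq2 called 1 region and limma-voom 0. The Cd34 region 4.76 kb downstream passed with the share of counts at gene ends as a covariate (0.0381) and without replicate 2 of IκB– HSC, 1 of IκB– MPP2, 1 of IκB– MPP3 or 3 of WT MPP4 (0.0240 to 0.0381). Esam passed with that covariate (0.0414) and without replicate 2 of WT MPP4 (0.0221). Both regions also passed in a fit with replicate number as a block (0.0171 for Cd34 and 0.0158 for Esam). The labels do not say what a number shares, and the other calls that this block added are listed in the last section.

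The Cd34 region 10.5 kb upstream of the start (chr1:194927975-194928305, outside genes) was more accessible in MPP3 than in HSC. In HSC, WT replicates had 0, 23.3 and 28.0 CPM and IκB– replicates 33.9, 17.7 and 4.41. In MPP2 the values were 10.5, 27.0 and 60.0 in WT and 33.0, 7.26 and 31.7 in IκB– recipients. Apart from the MPP2 library at 60.0 CPM, these values did not exceed 33.9 CPM. In MPP3 the 2 WT replicates had 84.4 and 60.6 CPM and the 3 IκB– replicates 78.6, 25.5 and 51.0. In MPP4 they were 62.0, 48.1 and 33.1 in WT and 105, 45.2 and 54.9 in IκB– recipients. The lowest MPP3 and the lowest MPP4 library lay within the HSC range, and the others were above it. The count of 0 in HSC replicate 1 of WT recipients allows up to 18.3 CPM, a limit that covers counting error only.

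Over both recipients this region averaged 17.9 ± 13.3 CPM in HSC (SD, n = 6), 28.3 ± 19.0 in MPP2 (SD, n = 6), 60.0 ± 23.5 in MPP3 (SD, n = 5) and 58.0 ± 25.0 in MPP4 (SD, n = 6). MPP3 exceeded HSC by 1.81 ± 0.44 on the log2 scale (SE, edgeR adjusted p = 0.0140) and exceeded MPP2 by 1.17 ± 0.35 (SE, edgeR adjusted p = 0.0279). MPP4 exceeded HSC by a like estimate, 1.70 ± 0.47, that missed the threshold (SE, edgeR adjusted p = 0.0540). This difference passed with total-count scaling, with no filter and with all 24 libraries apart (0.0449 to 0.0497). It also passed without replicate 1 of IκB– HSC, 1 or 2 of IκB– MPP3, 2 of IκB– MPP4 or 1 or 3 of WT MPP2 (0.0288 to 0.0431). Between MPP3 and HSC 2 marker genes also passed: Slamf1 was lower in MPP3 (log2 -2.63, edgeR adjusted p = 0.0471) and the stroma gene Pdgfrb higher (1.94, edgeR adjusted p = 0.0479). Kitl had a log2 difference of -0.90 there (edgeR adjusted p = 0.150). Summed stroma levels ran from 65.3 to 143 CPM in WT HSC and 48.5 to 203 in IκB– HSC, and from 72.9 to 111 over the MPP3 libraries. Their part in the Cd34 difference was not tested. Recipients did not separate the Cd34 region, with a mean difference of 0.04 ± 0.31 (SE, edgeR adjusted p = 0.967). The MPP3 against HSC call was lost without replicate 1 of WT MPP3 (adjusted p = 0.0638), without replicate 1 of IκB– MPP3 (0.0611) and with limma-voom (0.0600). The MPP3 against MPP2 call was lost without replicate 1 or 2 of WT MPP2, replicate 1 or 2 of IκB– MPP2, replicate 1 of WT MPP3 or replicate 1 of IκB– MPP3 (adjusted p from 0.0501 to 0.149), and with DESeq2 (0.0819).

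A second Cd34 region, inside the gene body 4.76 kb downstream of the start (chr1:194943579-194943838), also had lower means in HSC and MPP2 than in MPP3 and MPP4, without passing the test. It averaged 18.9 ± 13.6 CPM in HSC and 25.6 ± 14.9 in MPP2 (SD, n = 6 each), then 43.7 ± 14.1 in MPP3 (SD, n = 5) and 46.1 ± 24.3 in MPP4 (SD, n = 6). The difference from HSC was 1.31 ± 0.45 in MPP3 and 1.51 ± 0.46 in MPP4 (SE, log2, edgeR adjusted p = 0.110 and 0.0839). Without replicate 2 of IκB– HSC both passed (adjusted p = 0.0479 and 0.0380), and without replicate 3 of WT MPP4 the second did (0.0486). The start of Cd34 (chr1:194938700-194939070) had no such order: it averaged 58.4 ± 18.3 CPM in HSC (SD, n = 6) and 63.8 ± 8.33 in MPP3 (SD, n = 5), a log2 difference of 0.21 ± 0.25 (SE, edgeR adjusted p = 0.794). The region 37.4 kb downstream (chr1:194976174-194976654, in the noncoding gene Gm16897) averaged 116 ± 25.8 CPM in HSC (SD, n = 6), 128 ± 22.1 in MPP2 (SD, n = 6) and 105 ± 14.1 in MPP3 (SD, n = 5). MPP3 differed there from HSC by -0.10 and from MPP2 by -0.32 on the log2 scale (edgeR adjusted p = 0.895 and 0.300).

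As a share of all Cd34 counts, the region 10.5 kb upstream held 7.33% ± 5.67 in HSC (SD, n = 6) and 18.9% ± 6.30 in MPP3 (SD, n = 5). The region 37.4 kb downstream held 48.7% ± 5.86 in HSC and 33.7% ± 3.99 in MPP3, while the start held 24.3% ± 4.59 and 20.4% ± 1.13. At 37.4 kb downstream the shares ran from 41.9% to 58.1% in HSC and from 29.5% to 38.2% in MPP3, without overlap. These shares are a description without a test.

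**Figure D1:**
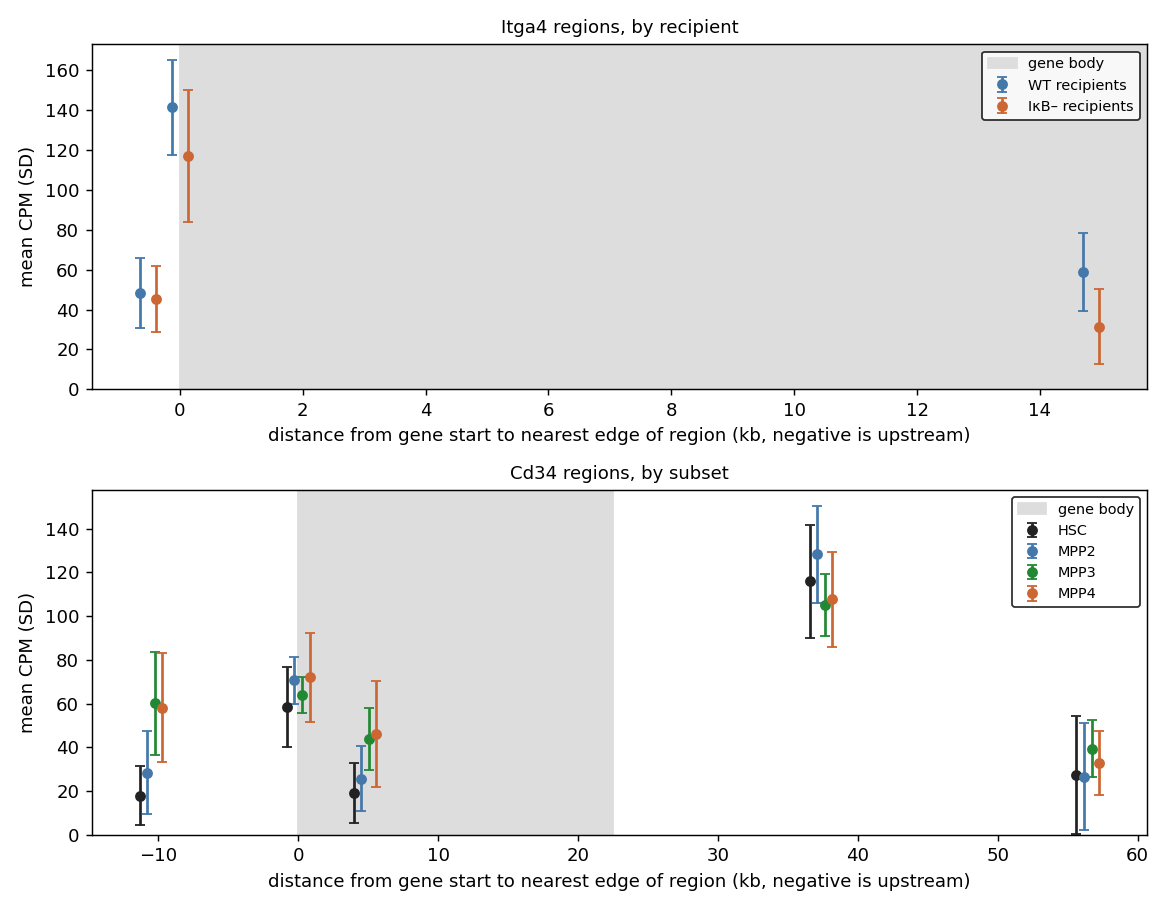
Mean CPM (points) with SD (bars) of each Itga4 region by recipient (top; 11 WT and 12 IκB– replicates) and of each Cd34 region by subset (bottom; 6, 6, 5 and 6 replicates), placed by distance from the gene's start in kb; points of one region are spread sideways and grey marks the gene body. At Cd34 10.5 kb upstream MPP3 (mean 60.0 CPM) passed the test against HSC (17.9) and MPP2 (28.3), MPP4 averaged 58.0, and at 37.4 kb downstream the 4 subset means lay between 105 and 128; at Itga4 the recipients were farthest apart 14.8 kb inside the gene.

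The Itga4 region 14.8 kb downstream of the start (chr2:79270256-79270533, inside the gene body) was less accessible in IκB– than in WT recipients. In HSC, WT replicates had 48.7, 93.0 and 56.0 CPM and IκB– replicates 27.1, 70.7 and 17.6. In MPP2 the values were 61.1, 48.0 and 98.2 in WT and 48.2, 29.0 and 52.9 in IκB– recipients. The recipients overlapped in both of these subsets. In MPP3 the WT replicates had 58.2 and 36.4 CPM and the IκB– replicates 15.2, 11.6 and 13.4. In MPP4 the values were 55.1, 48.1 and 42.5 in WT and 26.9, 45.2 and 18.3 in IκB– recipients. MPP3 was the subset in which all IκB– libraries lay below all WT libraries. Recipients did not overlap in MPP3, with its 2 WT replicates, at 28.2% of all tested regions.

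Over all subsets the WT recipients averaged 58.7 ± 19.6 CPM (SD, n = 11) and the IκB– recipients 31.3 ± 18.7 (SD, n = 12), and 11 of 12 IκB– replicates were below the WT median of 55.1. The region fell by 1.01 ± 0.22 on the log2 scale in IκB– recipients (SE, edgeR adjusted p = 0.0103). It kept this call without each of the 23 replicates in turn and under the 9 other alternatives run (adjusted p from 0.00229 to 0.0430). In MPP3 alone the estimate was -1.74 ± 0.43 and missed the threshold (SE, edgeR adjusted p = 0.0635). It passed without replicate 1 or 3 of IκB– HSC (0.0443 and 0.0221), with all 24 libraries apart (0.0381) and with limma-voom (0.0346). The test of whether the recipient effect differed between subsets gave an adjusted p of 0.999 in edgeR.

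Across subsets this Itga4 region was lower in MPP3 than in MPP2, by -1.11 ± 0.29 on the log2 scale (SE, edgeR adjusted p = 0.00945), at 26.9 ± 20.1 CPM (SD, n = 5) against 56.2 ± 23.1 (SD, n = 6). That call was lost without the merged replicate 2-3 of WT MPP3 (adjusted p = 0.0910). In WT recipients the subsets overlapped, at 36.4 and 58.2 CPM in MPP3 and 48.0 to 98.2 in MPP2. In IκB– recipients they did not, at 11.6 to 15.2 CPM in MPP3 and 29.0 to 52.9 in MPP2. The same IκB– MPP3 libraries also enter the recipient difference above. Marker genes of other cells also differed between these subsets. Of 5 megakaryocyte genes 4 had a region, and 3 of these were lower in MPP3: Pf4 (log2 -1.32), Gp1ba (-1.53) and Vwf (-0.91; edgeR adjusted p = 0.0176, 0.0299 and 0.0249). Itga2b, the remaining gene with a region, had log2 differences of -0.69, 0.47 and 0.12 at its regions. Summed megakaryocyte levels ran from 224 to 399 CPM in WT MPP2 and 181 to 283 in IκB– MPP2, against 163 to 262 and 160 to 188 in MPP3. Of 6 erythroid genes 3 had a region and Epor was lower in MPP3 (log2 -1.17, edgeR adjusted p = 0.0362). Slamf1, on which the gates of these subsets differ, was lower by -2.46 (edgeR adjusted p = 0.00724), and the stroma gene Kitl by -1.03 (edgeR adjusted p = 0.0145). Pdgfrb, the other stroma gene with a region, had a log2 difference of 1.19 (edgeR adjusted p = 0.0672). Summed over both stroma genes, levels ran from 92.7 to 116 CPM in WT MPP2 and 127 to 190 in IκB– MPP2, against 86.4 to 105 and 72.9 to 111 in MPP3. The part of these genes in the Itga4 and Cd34 differences between MPP3 and MPP2 was not tested. The joint call of this Itga4 region over subsets was lost with total-count scaling (adjusted p = 0.0627), DESeq2 (0.0765), limma-voom (0.142) and without any 1 of 14 replicates (0.0526 to 0.227). Those replicates were 2 of WT HSC, 1 and 3 of WT MPP2, 1 and 3 of IκB– MPP2, 1 and 2-3 of WT MPP3, 1, 2 and 3 of IκB– MPP3, 2 and 3 of WT MPP4, and 1 and 3 of IκB– MPP4.

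The other regions of the VLA-4 genes moved less. The Itga4 start (chr2:79255085-79255949) averaged 141 ± 23.9 CPM in WT (SD, n = 11) and 117 ± 33.1 in IκB– recipients (SD, n = 12), a log2 difference of -0.27 ± 0.13 (SE, edgeR adjusted p = 0.349). In MPP4 the 3 IκB– libraries (105, 90.3 and 125 CPM) were all below the 3 WT libraries (179, 127 and 156). Of all tested regions, 11.8% had no overlap in MPP4, in either direction. The region 0.516 kb upstream (chr2:79254712-79254910) had 48.2 ± 17.6 CPM in WT (SD, n = 11) and 45.4 ± 16.5 in IκB– recipients (SD, n = 12). In MPP3, however, its IκB– libraries (32.2, 37.1 and 48.3 CPM) were all below the WT libraries (73.2 and 66.7), at -0.87 ± 0.33 (SE, edgeR adjusted p = 0.302). No overlap in MPP3 was seen at 28.2% of all tested regions. In MPP4 the means lay the other way, at 70.1 ± 7.18 CPM in IκB– and 48.1 ± 24.7 in WT recipients (SD, n = 3 each), with overlap.

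Itgb1, the shared beta subunit, had the highest mean level at a start among the members, 160 ± 38.2 CPM over all replicates (SD, n = 23; chr8:128685381-128686461). Per kilobase this was 148, close to the 149 of the Itga4 start. WT recipients averaged 160 ± 39.9 CPM (SD, n = 11) and IκB– recipients 159 ± 38.3 (SD, n = 12), and the log2 difference was 0.03 ± 0.13 (SE, edgeR adjusted p = 0.942). The region 30.6 kb upstream (chr8:128654699-128655096, outside genes) averaged 87.7 ± 20.6 CPM in MPP2 (SD, n = 6) and 55.2 ± 12.0 in MPP3 (SD, n = 5). This difference of -0.66 ± 0.24 on the log2 scale did not pass (SE, edgeR adjusted p = 0.0916), but passed with limma-voom (0.0386) and without replicate 3 of IκB– HSC (0.0486).

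**Figure D2:**
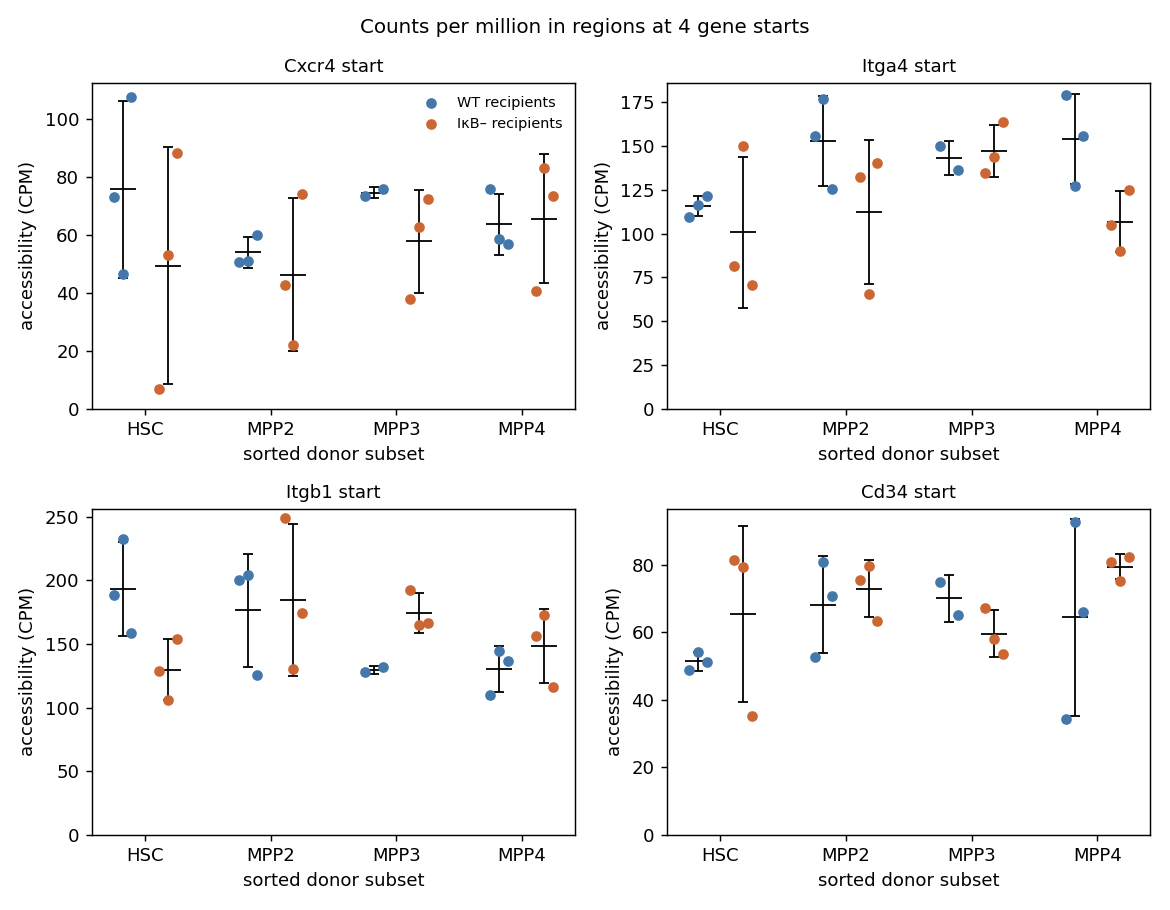
CPM of each replicate (points) with the group mean and SD (bars) at the starts of Cxcr4, Itga4, Itgb1 and Cd34, by subset and by WT (blue) or IκB– (orange) recipient. All IκB– libraries were below the WT libraries at Cxcr4 in MPP3, at Itga4 in MPP4 and at Itgb1 in HSC, and above them at Itgb1 in MPP3. In the other subsets the recipients overlapped. Over all tested regions, the share without overlap was 8.51% in HSC, 28.2% in MPP3 (2 WT replicates) and 11.8% in MPP4.

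Recipients differed, averaged over subsets, at 2 of the 16 tested regions, beside 1.73% of all regions. One was higher in IκB– recipients (background 0.608%) and 1 lower (background 1.13%). The lower one was the Itga4 region above and the higher one was Cd34 56.4 kb downstream of its start. Without adjustment 5 of 16 had p under 0.05, against 14.3% of all regions. DESeq2 called 2 and limma-voom 1. The median log2 difference of the 16 was -0.09, against -0.0021 over all regions.

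The Cd34 region 56.4 kb downstream of the start (chr1:194995258-194995517) lies in the noncoding gene Gm32250, 34.0 kb beyond the end of Cd34, and belonged to Cd34 by distance alone. In HSC it had 6.09, 7.75 and 23.3 CPM in WT and 20.4, 26.5 and 79.3 in IκB– recipients. In MPP2 the values were 16.9, 9.0 and 5.45 in WT and 31.7, 72.6 and 23.8 in IκB– recipients, with no overlap (11.8% of all tested regions). In MPP3 they were 20.6 and 40.9 in WT and 35.0, 44.1 and 56.3 in IκB– recipients. In MPP4, where the recipients overlapped most, WT replicates had 27.5, 20.6 and 37.8 and IκB– replicates 40.4, 15.1 and 54.9. Of 12 IκB– replicates, 10 were above the WT median of 20.6 CPM.

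Its mean was 19.6 ± 12.3 CPM in WT (SD, n = 11) and 41.7 ± 20.5 in IκB– recipients (SD, n = 12), a log2 difference of 1.11 ± 0.28 (SE, edgeR adjusted p = 0.0319). The call did not hold without replicate 3 of IκB– HSC, the library with the highest share of counts at gene ends (log2 difference 0.86, adjusted p = 0.146). It was also lost without replicate 1 or 2 of WT HSC, 2 of WT MPP2, 2 of IκB– MPP2, 1 of WT MPP3, 3 of IκB– MPP3, 2 of WT MPP4 or 3 of IκB– MPP4 (adjusted p from 0.0524 to 0.0859), and with limma-voom (0.0510).

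**Figure D3:**
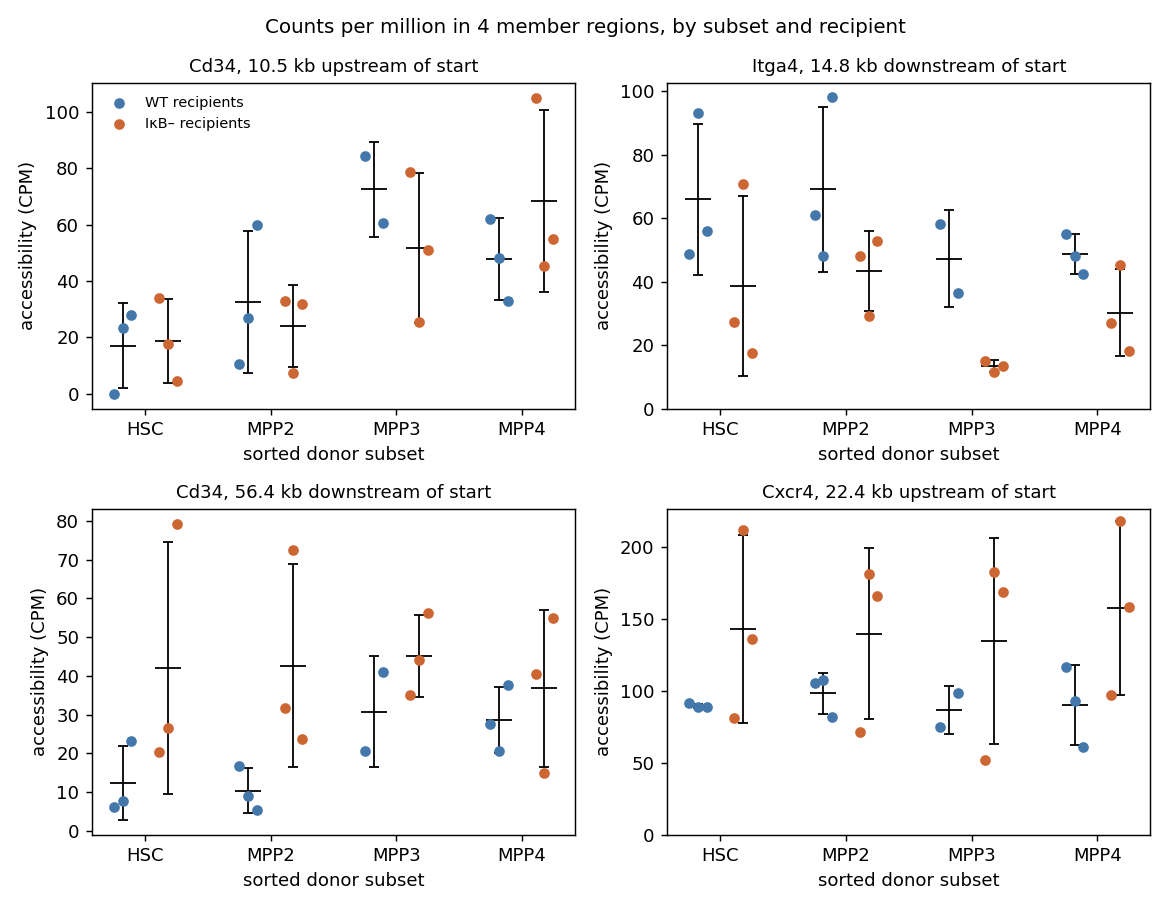
CPM of each replicate (points) with the group mean and SD (bars) in 4 member regions, by subset and by WT (blue) or IκB– (orange) recipient. The region upstream of Cd34 was higher in MPP3 than in HSC, and the Itga4 region was lower in IκB– recipients. In the region upstream of Cxcr4, 8 of 12 IκB– libraries, those numbered 2 and 3, were above every WT library. The mean recipient difference there was not called (edgeR adjusted p = 0.181).

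The region 22.4 kb upstream of Cxcr4 (chr1:128614678-128615583, outside genes) was high in part of the IκB– libraries. WT replicates lay between 61.4 and 117 CPM with a median of 91.4 (n = 11). In IκB– recipients the libraries numbered 2 and 3 had 212 and 137 CPM in HSC and 181 and 166 in MPP2; in MPP3 they had 183 and 169, and in MPP4 218 and 159. Those numbered 1 had 81.4, 71.6, 52.1 and 96.9 in the same order. All 8 libraries numbered 2 or 3 were thus above every WT library, and none of the 4 numbered 1 was. WT replicates numbered 1 had 75.0 to 117 CPM. Separation of the IκB– libraries numbered 1 from the rest was seen at 1.09% of all tested regions and at no other member region; it was looked for after these values were seen. The labels do not say whether a replicate number marks a shared animal, day or batch.

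Over all libraries this Cxcr4 region averaged 91.7 ± 15.7 CPM in WT (SD, n = 11) and 144 ± 55.9 in IκB– recipients (SD, n = 12), a log2 difference of 0.57 ± 0.21 that did not pass (SE, edgeR adjusted p = 0.181). It passed without replicate 1 of IκB– MPP3 (adjusted p = 0.0288) and in a fit with replicate number as a block (0.0279). The Cxcr4 start (chr1:128592255-128592641) averaged 66.2 ± 17.4 CPM in WT and 54.6 ± 25.2 in IκB– recipients (SD, n = 11 and 12), a log2 difference of -0.25 ± 0.21 (SE, edgeR adjusted p = 0.638). The start therefore held 39.1% ± 7.21 of the Cxcr4 counts in WT (SD, n = 11) and 25.3% ± 9.14 in IκB– recipients (SD, n = 12), a description without a test. Subsets did not pass the joint test at either region (edgeR adjusted p = 0.868 at the start and 0.990 upstream). The region 21.8 kb downstream (chr1:128570194-128570476, outside genes) averaged 12.8 CPM and had 3 or fewer counts in 12 replicates.

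The most accessible Cd44 region lay 42.4 kb upstream of its start (chr2:102944107-102944412, in the noncoding gene Gm34483). It averaged 45.7 ± 15.7 CPM in WT (SD, n = 11) and 66.8 ± 23.3 in IκB– recipients (SD, n = 12), and 11 of 12 IκB– replicates were above the WT median of 43.6. The log2 difference of 0.51 ± 0.20 did not pass (SE, edgeR adjusted p = 0.191). In MPP4 the IκB– libraries (113, 75.3 and 79.3 CPM) were all above the WT libraries (41.3, 34.4 and 66.1). Of all tested regions, 11.8% had no overlap in MPP4. The other subsets overlapped, with WT and IκB– means of 63.1 and 66.3 CPM in MPP3, 42.5 and 52.5 in MPP2, and 35.65 and 59.3 in HSC. The start (chr2:102901431-102901635) and the region 2.29 kb inside the gene (chr2:102899178-102899378) differed by -0.06 ± 0.24 and -0.12 ± 0.36 (SE, log2, edgeR adjusted p = 0.939 and 0.920).

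Esam had 1 region, inside its body and 2.11 kb from a gene end (chr9:37530199-37530490). In HSC, WT replicates had 60.9, 112 and 84.0 CPM and IκB– replicates 40.7, 35.4 and 44.1, with no overlap (8.51% of all tested regions). In the other subsets WT replicates ranged from 13.8 to 75.7 CPM and IκB– replicates from 16.1 to 64.7. WT HSC were thus the highest group, at 85.8 ± 25.8 CPM (SD, n = 3), and IκB– MPP4 the lowest, at 19.9 ± 2.33 (SD, n = 3). The mean recipient difference was -0.63 ± 0.22 on the log2 scale and MPP3 differed from HSC by -0.98 ± 0.31, neither past the threshold (SE, edgeR adjusted p = 0.138 and 0.0838). The second passed with limma-voom (adjusted p = 0.0497).

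Summed levels of 3 endothelial genes with a region, out of 5 listed, ran from 121 to 143 CPM in WT HSC and from 74.9 to 176 in IκB– HSC. Their part in the Esam values was not tested. In bulk samples, fewer cells of a type and less accessibility per cell cannot be told apart.

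Procr and Selplg each rested on a thin region. The Procr region, 7.95 kb upstream of the start and outside genes (chr2:155743030-155743263), had 0 to 28 counts per replicate. It averaged 23.5 ± 10.5 CPM in WT (SD, n = 11) and 12.5 ± 5.51 in IκB– recipients (SD, n = 12), and 12 of 12 IκB– replicates were below the WT median of 27.0. WT replicates reached down to 6.32 CPM, and 1 IκB– replicate was below that. Counts were 3 or fewer in 7 replicates. In HSC the WT replicates had 24.4, 31.0 and 18.7 CPM and the IκB– replicates 13.6, 8.84 and 8.81, which is 2 counts or fewer each. In MPP3 the values were 28.1 and 42.4 in WT and 9.47, 16.2 and 16.1 in IκB– recipients, again without overlap, while MPP2 and MPP4 overlapped. Of all tested regions, 8.51% had no overlap in HSC and 28.2% in MPP3. In the fit with no filter the log2 difference between recipients was -0.87 (edgeR adjusted p = 0.177).

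The Selplg region (chr5:113830445-113830587, inside the gene body) had 0 to 23 counts per replicate and averaged 13.2 ± 8.57 CPM in WT (SD, n = 11) and 19.0 ± 9.0 in IκB– recipients (SD, n = 12). In MPP3 the IκB– replicates (21.8 to 24.1 CPM) were all above the WT replicates (3.75 and 16.7), and in the other subsets the recipients overlapped. Without the filter the recipient difference was 0.56 on the log2 scale (edgeR adjusted p = 0.514). No order of subsets was seen at this depth, with means of 15.1 CPM in HSC and 17.9 in MPP3.

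The pairwise comparisons of subsets called few member regions. MPP3 against HSC called 1 of 16, beside 2.58% of all regions (0.63% higher). MPP3 against MPP2 called 2, beside 8.12% (1.85% higher, 6.27% lower). In edgeR, 0 member regions were called in each of MPP4 against HSC (background 1.22%, 3 at unadjusted p under 0.05), MPP4 against MPP2 (3.37%, 6 unadjusted), MPP2 against HSC (0.03%, 0 unadjusted) and MPP4 against MPP3 (0.0%, 0 unadjusted). DESeq2 and limma-voom also called 0 in these 4 comparisons.

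Within single subsets the recipients did not differ at any member region in edgeR, with 0 called in HSC (background 0.0%, 3 unadjusted), MPP2 (0.0%, 1 unadjusted), MPP3 (0.21%, 2 unadjusted) and MPP4 (0.045%, 2 unadjusted). DESeq2 called 0 in each, and limma-voom called 1 in MPP3 and 0 in the others. The test that the recipient effect differs between subsets called 0 (0.0% of all regions, 0 unadjusted; DESeq2 0, limma-voom 0). The IκB– and WT libraries did not overlap at 2 of 16 regions in HSC (8.51% of all regions), 1 in MPP2 (11.8%), 6 in MPP3 (28.2%, where WT has 2 replicates) and 2 in MPP4 (11.8%). The 6 in MPP3 comprised 5 with IκB– below WT and 1 above.

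**Figure D4:**
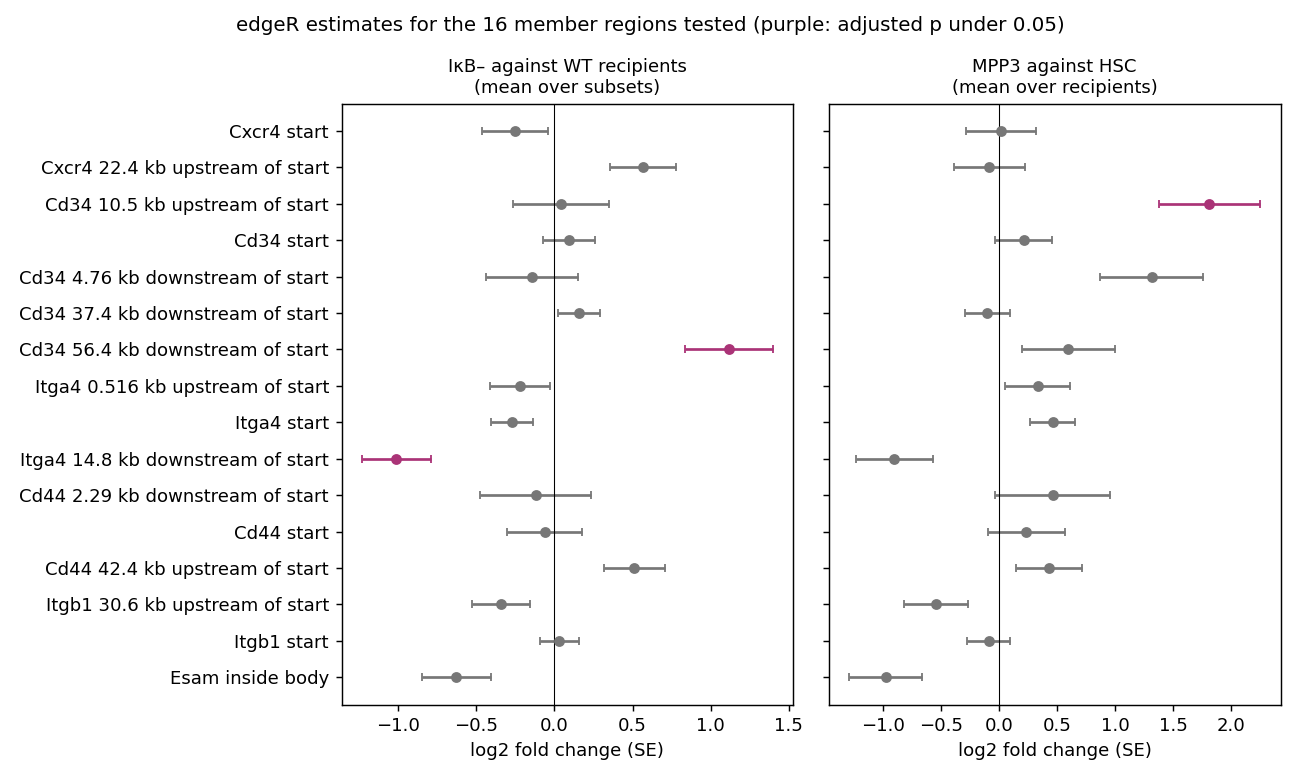
Log2 fold change (points) with SE (bars) from edgeR for the 16 tested member regions, for IκB– against WT recipients averaged over subsets (left) and MPP3 against HSC averaged over recipients (right); purple marks adjusted p under 0.05. The Itga4 and Cd34 distal regions stood out by recipient at -1.01 and 1.11, and the Cd34 region 10.5 kb upstream by subset at 1.81.

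With counts summed over each gene's regions, 6 of the 8 genes could be tested and edgeR called 0 for either question. For recipients 0.541% of all genes were called, and 2 members had an unadjusted p under 0.05, as did 12.0% of all genes: Itga4 at -0.38 ± 0.11 (SE, log2, edgeR adjusted p = 0.0942) and Esam. DESeq2 called 0 and limma-voom 1, which was Itga4 (adjusted p = 0.0497); Itga4 also passed with the share of counts at gene ends as a covariate (0.0466) and without replicate 2 of IκB– HSC (0.0353). For subsets 2.62% of all genes were called, and 4 members had an unadjusted p under 0.05 (14.3% of all genes), with edgeR adjusted p of 0.122 for Esam, 0.217 for Cd34, 0.255 for Itgb1 and 0.339 for Cd44; DESeq2 and limma-voom called 0, and Esam passed without replicate 2 of WT MPP4 (0.0384). The summed Itga4 level was 248 ± 24.6 CPM in WT (SD, n = 11) and 194 ± 40.6 in IκB– recipients (SD, n = 12). Selplg and Procr were not tested because their regions failed the filter.

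In the order of the 8 group means, few neighbours stood apart. At Itga4 14.8 kb downstream the 4 WT groups ranked above the 4 IκB– groups, from 69.1 ± 26.0 CPM in WT MPP2 to 13.4 ± 1.78 in IκB– MPP3 (SD, n = 3 each). At Cd34 56.4 kb downstream the 4 IκB– groups ranked above the 4 WT groups, from 45.1 ± 10.7 CPM in IκB– MPP3 to 10.4 ± 5.84 in WT MPP2 (SD, n = 3 each). In each of these orders 1 of 7 steps between neighbours exceeded the larger SD of the pair. The number was 2 of 7 at Esam and 1 of 7 at the Cd34 start, the Itga4 start and the Procr region. At the other 13 regions, among them Cd34 10.5 kb upstream and all those of Cxcr4, Cd44 and Itgb1, it was 0 of 7.

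Other homing and adhesion genes were listed for comparison: 86 genes comprising receptors and niche signals, integrins, selectins with their ligand enzymes, other adhesion molecules and motility signalling. Of these, 60 had a region, and 109 of their regions were tested. Subsets differed at 8 of these (7.34%), a share near the 7.2% of all regions, and the 8 lay at Notch1 (2), S1pr1 (2), Casr, Ptger2, Cd47 and St3gal6. Recipients differed at 2 (1.83%, against 1.73%). A region near Gnai2, a G protein subunit that chemokine receptors signal through, was higher in IκB– recipients by 0.94 on the log2 scale (edgeR adjusted p = 0.0449). One at an end of S1pr1, the receptor by which cells leave tissues along sphingosine-1-phosphate, fell by 0.73 (edgeR adjusted p = 0.0437).

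By Pearson correlation of log2(CPM + 1) of summed regions over the 23 replicates, the most alike gene was Epc2 for Cxcr4 (r = 0.77), Klhl18 for Itga4 (0.75), Bnip3 for Cd44 (0.81), Rabl2 for Cd34 (0.78) and Cish for Esam (0.80). These are the highest of 10356 genes each and are descriptions, since replicates share groups, libraries and depth.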

How the data were processed

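ATAC-seq was measured in 24 libraries of sorted donor cells, 3 per group. The authors deposited whole-number counts per region for 13910 regions. The submitters' processing notes name mm10, Bowtie2, SAMtools, Picard, MACS2 2.1.0 and deepTools without role or order. Duplicate removal, the transposase offset and the counting tool are not given in the sources used here. Column names with KO and LT were read as IκB– recipient and HSC.

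Regions were fitted whole in edgeR 4.0.16 (R 4.3.3): TMM on all regions, filterByExpr, a group-means model with robust quasi-likelihood F tests over 23 replicates (15 residual degrees of freedom), and Benjamini-Hochberg adjustment over 13325 regions. Gene tests used counts summed over a gene's regions (10357 genes kept of 10530). A call is an adjusted p under 0.05. Each comparison of subsets averaged both recipients, and the recipient effect averaged 4 subsets. The steps were tested on simulated data. Alternatives were DESeq2 size factors in edgeR, total-count scaling, nuclear regions only, no filter, DESeq2 1.42.0, limma-voom (limma 3.58.1), all 24 libraries apart, a replicate block, the share of counts at gene ends as a covariate, each replicate left out, and assignment limits of 10 kb and 100 kb. The named regions are all member regions, and likeness was named where r reached 0.7; that of Itgb1 is not reported here. The members and gene lists were chosen with earlier results of these data known. Depth ranged from 121599 to 963699 counts, and limits for counts of 0 (3 counts) cover counting error only.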

Additional observations from a re-analysis of the deposited data

Results flagged for a closer look

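At the start of Itgb1 the recipients lay in opposite order in HSC and MPP3. In HSC the IκB– libraries (129, 106 and 154 CPM) were all below the WT libraries (189, 233 and 159 CPM), with a log2 fold change of -0.55. In MPP3 the IκB– libraries (192, 165 and 166 CPM) were all above the WT libraries (128 and 132 CPM), with a log2 fold change of 0.44. Over all tested regions, recipients did not overlap at 8.51% in HSC and at 28.2% in MPP3, where WT has 2 replicates. This opposite order drew attention to the pair and was not itself tested; the test of any difference in recipient effect among the 4 subsets was not called at this region (edgeR adjusted p = 0.999).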

How the results depend on the processing

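None of the 5 called pairwise or recipient differences of member regions changed sign under any alternative run. Of all 242 estimates for member regions and genes, 87 had the other sign under at least 1. Among mean recipient differences given above, these were Cd34 10.5 kb upstream (10 of 32 alternatives, -0.17 to 0.22), the Cd44 start (3 of 32, -0.24 to 0.02), Cd44 2.29 kb inside (2 of 29, -0.37 to 0.03) and the Itgb1 start (3 of 32, -0.04 to 0.08). Counts of called member regions moved as follows, and the cause was not tested. Total-count scaling gave 1 for MPP4 against HSC and 1 for any difference between subsets, and no filter gave 1 for MPP4 against HSC. DESeq2 gave 1 for MPP3 against MPP2 and 1 between subsets. Limma-voom gave 3 for MPP3 against MPP2, 1 for the mean recipient effect, 1 for it in MPP3, 0 between subsets and 1 gene by recipient. With all 24 libraries apart there was 1 for MPP4 against HSC and 1 for recipients in MPP3. With the share of counts at gene ends as a covariate there were 4 between subsets and 1 gene, Itga4, by recipient. Leaving out 1 replicate gave 0 to 2 for MPP3 against HSC, 0 to 1 for MPP4 against HSC, 1 to 3 for MPP3 against MPP2, 0 to 1 for MPP4 against MPP2, 1 to 3 for the mean recipient effect, 0 to 1 for it in MPP3 and 1 to 3 between subsets; for genes it gave 0 to 1 between subsets and 0 to 1 by recipient. A limit of 10 kb in the assignment gave 12 member regions and 100 kb gave 21.

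The labels give the groups the same replicate numbers but do not say what a number shares. Deviations of same-numbered libraries correlated by 0.138 on average (52 of 84 pairs over 0.1) and those of different numbers by -0.069; 24 of 24 libraries correlated best with their own number, a hint from the data and not the design. With the replicate block the counts were 3 for MPP3 against HSC, 2 for MPP4 against HSC, 3 for MPP3 against MPP2, 1 for MPP4 against MPP2, 3 for the mean recipient effect, 1 for it in MPP3, 4 between subsets, 3 genes between subsets and 1 gene by recipient. Calls that the block added were Cd34 4.76 kb downstream and Esam for MPP3 against HSC (adjusted p = 0.0365 and 0.0241) and between subsets (0.0171 and 0.0158), Cd34 10.5 kb upstream and 4.76 kb downstream for MPP4 against HSC (0.0171 and 0.0277), Itgb1 30.6 kb upstream for MPP3 against MPP2 (0.0169) and Cd34 10.5 kb upstream for MPP4 against MPP2 (0.0321). By recipient they were Cxcr4 22.4 kb upstream (log2 0.55, adjusted p = 0.0279) and, in MPP3, Itga4 14.8 kb downstream (0.00738). The genes were Cd34, Esam and Itgb1 between subsets (0.0358, 0.0196 and 0.0395) and Itga4 by recipient (0.0258). Depth limits HSC most, where 3 counts equal 11.6 to 26.5 CPM.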
